A study of Mus musculus with 208 samples.

Results

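Prnp, Tubb3, Map1lc3b, Kcnq1ot1, Tcf25 and Ankrd11, 6 abundant transcripts of sorted hypothalamic nuclei, had counts in the hypothalamus and a total of exactly 0 in the hippocampus, prefrontal cortex (PFC) and striatum of the same series. These 6 genes were chosen by that rule, which used the raw counts of all 4 regions. They were 6 of 46403 gene symbols listed in each count table, of which 33122 had counts in the hypothalamus and 8442 of those had none in the other 3 regions. Because the zeros chose the genes, the zeros are described and not tested below, and only the comparisons among hypothalamic libraries, which the rule did not use, carry a test. The label of neuronal gene fits Tubb3 most closely, since the other 5 are transcribed in many cell types.

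The 6 genes have unrelated functions. Prnp encodes the cellular prion protein, a membrane-anchored glycoprotein that is abundant on neurons, and Tubb3 encodes the neuron-specific beta-III tubulin of microtubules. Map1lc3b encodes LC3B, the ubiquitin-like protein that is coupled to lipid in growing autophagosome membranes, and Tcf25 encodes a partner of the listerin ubiquitin ligase in the quality control of stalled ribosomes. Ankrd11 encodes an ankyrin-repeat chromatin regulator that recruits histone deacetylases, and Kcnq1ot1 is a long noncoding RNA made from the paternal chromosome, antisense to the potassium channel gene Kcnq1, that silences neighboring genes in cis.

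The study asked how morphine in early life altered neuronal gene expression in adult brain and its response to an immune challenge. C57BL/6NTac dams carried minipumps that delivered morphine at 10 mg/kg/day or saline during gestation, and their pups were raised by drug-naive foster dams and given 2 daily injections of morphine (10 mg/kg) or saline from postnatal day 1 to 14. In adulthood the offspring received bacterial lipopolysaccharide (LPS) or saline and brains were taken 2 h later. NeuN+ nuclei, the neuronal fraction, were sorted from each region of single animals and their RNA was sequenced.

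The hypothalamus gave 51 libraries in 4 conditions named by early exposure and adult challenge, with 11 SAL-SAL, 12 SAL-LPS, 14 MOR-SAL and 14 MOR-LPS libraries, from 26 females and 25 males. Each animal is labeled by a pair of numbers, and animals that share the first number are called a label group here. The labels do not say what that number marks, and it was not shown to be the litter. There were 17 label groups, 10 of morphine-exposed and 7 of saline-exposed animals, and none held both exposures. The study's methods state that litters were nested within perinatal exposure, so differences between litters and the exposure cannot be fully told apart. Total counts ran from 7673 to 35077048 per library with a median of 5543589, and 3 libraries held under 0.5 of that median (SAL-LPS 1-4, SAL-SAL 4-3 and SAL-SAL 1-1). In 3 libraries labeled female, 12-1, 15-0 and 10-0, the Y-linked genes Ddx3y, Uty, Kdm5d and Eif2s3y summed to over 5 normalized CPM (counts per 1e6 counts of the library), up to 115, where the lowest male had 108. The other regions gave 55 hippocampal, 48 PFC and 54 striatal libraries.

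Across all hypothalamic libraries Kcnq1ot1 held 346925 counts, Tcf25 141047, Prnp 97527, Ankrd11 68700, Tubb3 62404 and Map1lc3b 35451. Kcnq1ot1, Tubb3, Tcf25 and Ankrd11 were counted in 51 of 51 libraries and Prnp and Map1lc3b in 50. The exception was SAL-LPS 1-4 with its 7673 counts, in which a count of 0 still allows a level of up to 391 CPM. In the other regions the 6 genes had 0 counts in every one of the libraries, which together held 587325892 counts in hippocampus, 496773171 in PFC and 828312434 in striatum. Taking 3 counts as the most that a count of 0 allows, the pooled levels counted there were at most 0.00511, 0.00604 and 0.00362 CPM in hippocampus, PFC and striatum. The deposited CPM tables held 0 at the same places. These limits cover counting error and describe what was counted, not how much RNA the nuclei contained.

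The genes ranked 1 (Kcnq1ot1), 4 (Tcf25), 8 (Prnp), 10 (Ankrd11), 12 (Tubb3) and 36 (Map1lc3b) by mean CPM among 1480 genes that were counted in the hypothalamus alone with a median level of 5 CPM or more. These 1480 were 11.8% of the 12491 genes at that level, and they took up 3.71 ± 0.568% of a hypothalamic library's counts (SD, n = 51).

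Of the 6 genes 5 lay wholly inside the annotated body of another gene, and Prnp lay 99.9% inside one. Positions below are those of GENCODE M21 on mm10 (GRCm38). Map1lc3b, Ankrd11, Tcf25 and Tubb3 (4 of the 6) sat in a single intron of the predicted gene Gm20388 on chromosome 8. Its body runs from 119910841 to 124345722 on the plus strand, 4.43 Mb, while its 16 exon blocks add up to 3953 bases. The longest intron, from 119910940 to 124295357, spans 4.38 Mb and contains Map1lc3b (chr8:121590361-121598760, plus strand), Ankrd11 (chr8:122883822-123042277, minus strand), Tcf25 (chr8:123373753-123403835, plus strand) and Tubb3 (chr8:123411424-123422015, plus strand). None of the 4 shares an exonic base with Gm20388. Ankrd11 is on the strand opposite to Gm20388 and the other three are on its strand. Ankrd11 also shares 1299 exonic bases (7.83% of its exons) with the antisense gene Gm45894, and since the strand setting of the counting is not given in the sources used here, reads of such antisense pairs cannot be told apart.

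Counts of Gm20388 followed the reverse pattern. It had 0 counts in 51 hypothalamic libraries and was counted in 55 of 55 hippocampal libraries at 300 ± 51.7 CPM (SD), in 48 of 48 PFC libraries at 340 ± 77 CPM and in 54 of 54 striatal libraries at 258 ± 50.5 CPM. Of 183 listed genes whose bodies lie wholly inside Gm20388, 116 had counts in the hypothalamus, and 116 of those 116 had a total of 0 in the other 3 regions. With Tubb3, Map1lc3b, Tcf25 and Ankrd11 among them, these genes summed to 3369 ± 500 CPM per hypothalamic library (SD, n = 51). The 5 nearest protein-coding genes on either side of Gm20388 with a median level of 5 CPM or more were counted in all 4 regions. Zcchc14, which overlaps Map1lc3b end to end on the opposite strand by 58 exonic bases and lies in the same intron, had 27034 counts in the hypothalamus and 0 elsewhere.

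**Figure D1:**
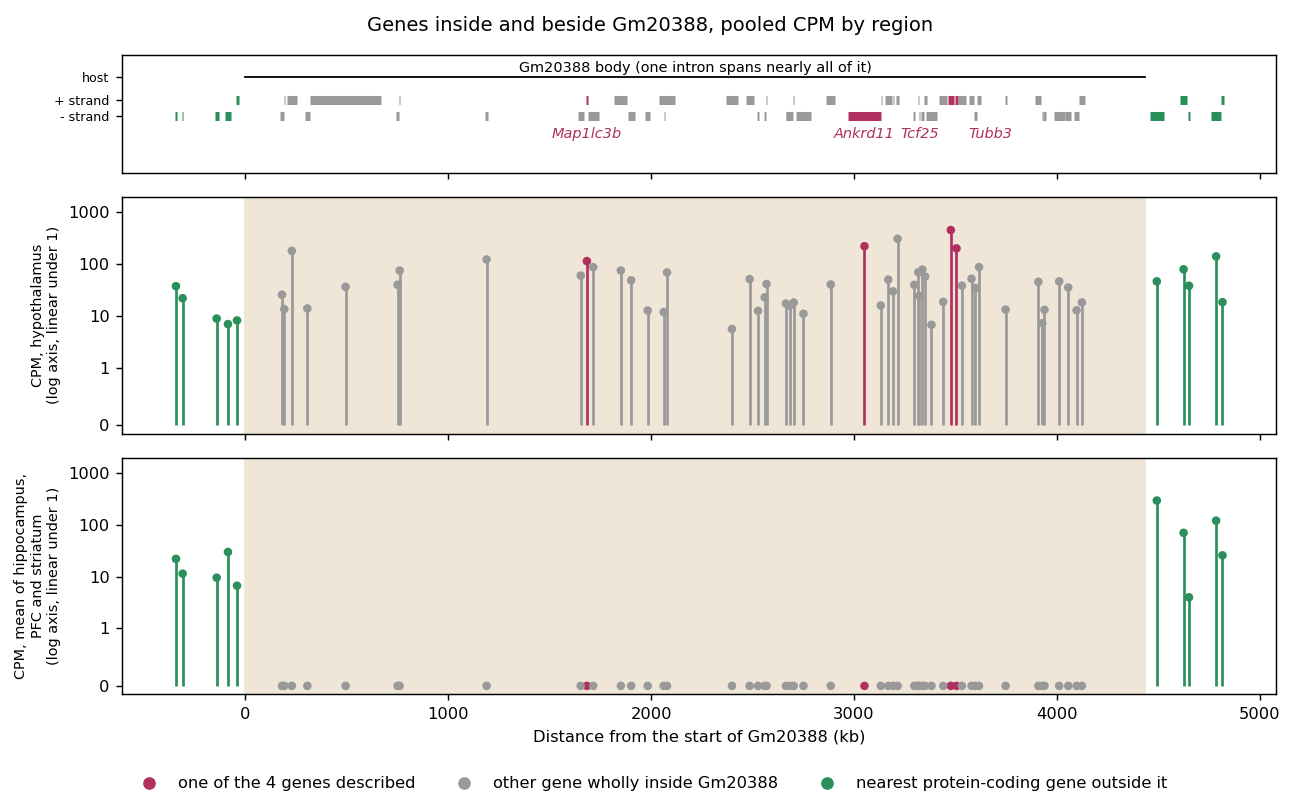
Genes at a median level of 5 CPM or more in the hypothalamus wholly inside Gm20388 (4 of the described genes in red, others in gray) and the 5 nearest such protein-coding genes on each side (green), by distance from the start of Gm20388 in kb, with the pooled CPM of the hypothalamus in the middle panel and the mean of the other 3 regions in the bottom panel on log axes that are linear below 1. The genes inside the shaded body stand above 0 in the hypothalamus and at 0 in the other regions, while the green genes outside it are counted in both.

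The start of Tubb3 is shown because the gene is the best known neuronal transcript of the group and its own promoter lies inside that intron. The sequence is RefSeq's window of 250 bases before to 50 after the gene's start on GRCm38.p6, chr8:123411303-123411602 on the plus strand, 5′ to 3′, with CCAAT in capitals where it occurs on either strand (ATTGG when on the other). CCAAT occurs in 37.4% of 32851 such windows.
Tubb3 promoter: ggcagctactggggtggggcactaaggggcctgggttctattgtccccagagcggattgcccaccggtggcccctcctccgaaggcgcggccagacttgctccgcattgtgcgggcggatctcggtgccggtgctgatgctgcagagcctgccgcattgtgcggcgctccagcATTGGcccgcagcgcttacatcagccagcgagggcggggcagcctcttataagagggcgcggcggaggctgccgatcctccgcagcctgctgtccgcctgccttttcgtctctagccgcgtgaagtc
The window held 26 CG dinucleotides against a median of 7 over all windows. Map1lc3b, Tcf25 and Ankrd11 windows held 34, 31 and 36. RefSeq's annotation of the same build, which lists no Gm20388, gave Tubb3 and Tcf25 no overlapping gene.

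Kcnq1ot1 (chr7:143203458-143296549, minus strand) is annotated as 1 unspliced exon of 93.1 kb wholly inside Kcnq1 (chr7:143106362-143427042, plus strand), with 121 bases shared with exons of Kcnq1. Unlike Gm20388, Kcnq1 was counted in all regions, at 9.78 ± 6.45 CPM in hypothalamus (SD, n = 51) and at 16.6 ± 8.3, 17.1 ± 10.4 and 20.8 ± 10.3 CPM in hippocampus, PFC and striatum. Kcnq1ot1 reached 1146 ± 224 CPM in the hypothalamus, and none of that count appeared as Kcnq1ot1 elsewhere. Its RefSeq start window, chr7:143296498-143296797 read on the minus strand, is shown because transcription from it runs against the host gene, again with CCAAT in capitals.
Kcnq1ot1 promoter: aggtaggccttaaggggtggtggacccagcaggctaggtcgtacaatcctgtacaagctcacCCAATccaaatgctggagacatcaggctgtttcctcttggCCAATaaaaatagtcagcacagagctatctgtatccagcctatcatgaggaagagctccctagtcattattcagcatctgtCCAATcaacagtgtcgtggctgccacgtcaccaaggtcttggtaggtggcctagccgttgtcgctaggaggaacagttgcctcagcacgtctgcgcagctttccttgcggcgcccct
This window held 3 copies of CCAAT and 9 CG dinucleotides.

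Prnp (chr2:131909928-131938429, plus strand) lay 99.9% inside Prn (chr2:131909957-131956130, same strand), a read-through transcription unit that joins Prnp to the downstream paralog Prnd. The shared exonic bases numbered 145, 6.19% of the exons of Prnp. The count tables list Prn under its older symbol Gm28045, which had 18 counts in the hypothalamus and 529, 447 and 849 in hippocampus, PFC and striatum. RefSeq gives both genes the same start window, chr2:131909678-131909977, which is shown because counts of the 2 symbols differ between regions although the annotated start does not.
Prnp and Prn promoter: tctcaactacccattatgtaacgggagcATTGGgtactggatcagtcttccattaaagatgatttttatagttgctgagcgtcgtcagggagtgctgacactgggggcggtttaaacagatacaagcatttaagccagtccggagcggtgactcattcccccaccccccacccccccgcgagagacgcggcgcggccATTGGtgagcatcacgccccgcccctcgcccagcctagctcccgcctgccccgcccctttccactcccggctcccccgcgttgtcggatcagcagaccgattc
The window held 2 copies of CCAAT (both as ATTGG), 3 of GGGCGG or its complement CCGCCC, a motif found in 35.7% of all windows, and 22 CG dinucleotides. Prnd, whose body lies wholly inside Prn, had 3 counts in the hypothalamus and 0 in the other regions.

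The same pattern was then counted over all 11713 annotated genes whose median level in the hypothalamus was 5 CPM or more. Among 1113 genes whose body lay wholly inside another gene, 1058 (95.1%) had 0 counts in the other 3 regions. Among 4635 genes that overlapped no other gene, 2 did (0.0431%), and among 5501 genes overlapped over at most 0.5 of the body none did. The share was 95.6% of 495 genes inside a gene of the same strand and 94.4% of 591 genes inside one of the opposite strand. Of 778 genes inside another gene with no exonic base in common, as for Tubb3 and Tcf25, 754 (96.9%) were at 0. Of 3964 genes not inside another gene that did share exonic bases with one, 40 (1.01%) were. Prnp, at 99.9%, fell in the class of 136 genes with 0.9 or more but not all of the body covered, of which 29 (21.3%) were at 0. In RefSeq's annotation, however, the body of Prnp lies wholly inside Prn.

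**Figure D2:**
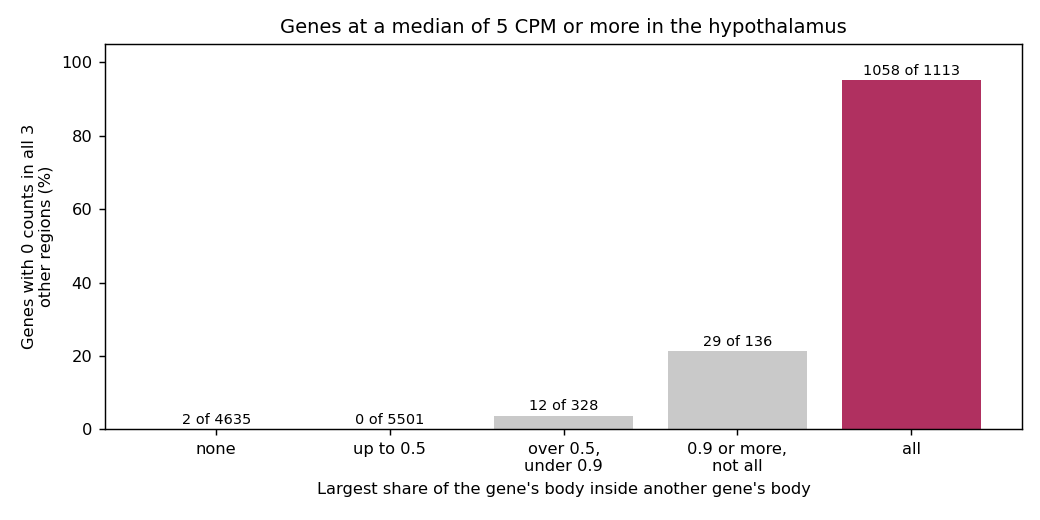
Share of genes with 0 counts in hippocampus, PFC and striatum (%) among genes whose median hypothalamic level was 5 CPM or more, by the largest share of the gene's body that lies inside another gene's body, with the number of genes above each bar. The last bar, for bodies wholly inside another gene, stands at 95.1%, and the first, for no overlap, at 0.0431%.

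Most relatives and partners of the 6 genes were counted in the other regions too. None of 20 tubulins and microtubule-associated proteins other than Tubb3 was at 0 elsewhere, nor any of 18 LC3-family and autophagy genes other than Map1lc3b or of 12 chromatin partners of ANKRD11. Tubb2a, a beta tubulin, had 60850 counts in the hypothalamus and 137386 in the other regions, Map1lc3a, the LC3A gene, 7811 and 46798, Ankrd12, the paralog of Ankrd11, 67930 and 390676, and Ltn1, which encodes listerin, 31881 and 123190. In the Kcnq1 imprinted domain 1 of 12 counted genes, Tssc4, was counted in the hypothalamus alone (14422 counts), and it lies wholly inside Trpm5. Pelo, a ribosome rescue factor inside Itga1, was the only such gene among 7 listed genes of ribosome-associated quality control.

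The hypothalamic tables also differed from the others in how counts were spread over long genes. Genes with bodies over 100 kb took up 24.8 ± 1.7% of the counts in hypothalamic libraries (SD, n = 51, lowest 21.3, highest 29.8). They took up 55.1 ± 6.33% in hippocampus (n = 55), 52.6 ± 7.4% in PFC (n = 48) and 58.4 ± 8.18% in striatum (n = 54), with a lowest value of 33.7% in any of those libraries, so the hypothalamic libraries did not overlap the rest. These shares leave out the ribosomal RNA loci Gm26917 and Rn18s-rs5. In the fifth of genes with the least intron per exonic base the median log2 ratio of hypothalamus to hippocampus, PFC and striatum was 0.79, 0.70 and 1.24, and in the fifth with the most it was -1.13, -1.04 and -1.26. The study's methods name the gene counts of STAR, checked with HTSeq-count, and give no strand setting. Whether the tables of the regions were counted with different rules for introns and overlapping genes was not tested.

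**Figure D3:**
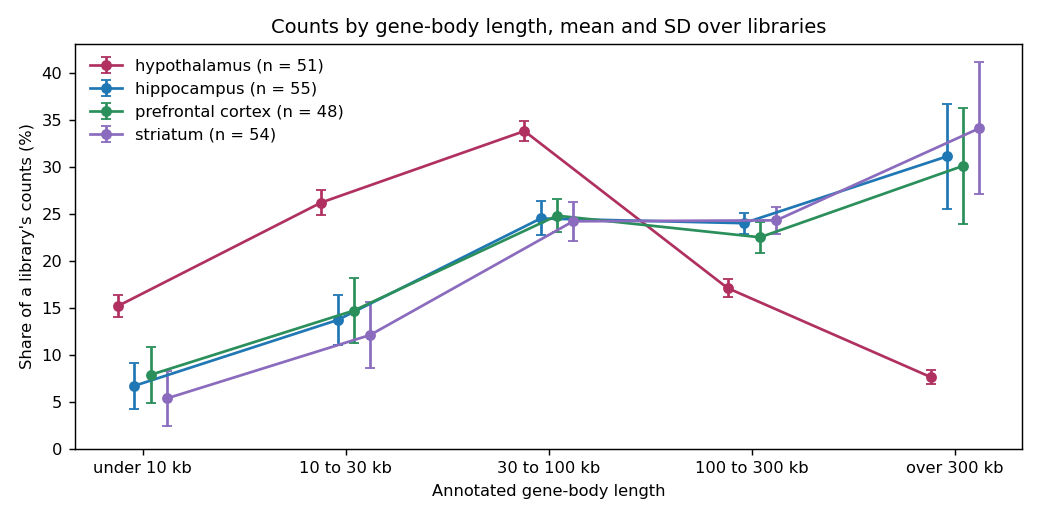
Share of a library's counts (%, mean and SD over libraries) on genes of 5 classes of annotated body length, for the 4 regions. Hypothalamic libraries (red) had 7.63% of counts on genes over 300 kb, against 31.1%, 30.1% and 34.1% in hippocampus, PFC and striatum.

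The rest concerns levels within the hypothalamus, given as normalized CPM (CPM scaled by edgeR's trimmed mean of M values, TMM). Over the 48 libraries with at least 0.5 of the median total, Kcnq1ot1 was highest in 48 of 48. Tcf25 exceeded Prnp in 43, Prnp exceeded Ankrd11 in 38, Ankrd11 exceeded Tubb3 in 31 and Tubb3 exceeded Map1lc3b in 43, so the middle ranks were not held in every animal. Per kb of annotated exon the order was different. Prnp came first at 138 ± 46.5 CPM per exonic kb (SD, n = 48), followed by Tubb3 at 109 ± 47.8 and Tcf25 at 86.5 ± 16. The spreads of these neighbors overlapped, and within libraries Prnp exceeded Tubb3 in 39 of 48 and Tubb3 exceeded Tcf25 in 33. Map1lc3b at 15.1 ± 5.57, Ankrd11 at 14.3 ± 3.18 and Kcnq1ot1 at 12.7 ± 2.7 formed a lower group with overlapping spreads. There Map1lc3b exceeded Ankrd11 in 27 of 48 libraries and Ankrd11 exceeded Kcnq1ot1 in 36, while Tcf25 exceeded Map1lc3b in 48 of 48. Kcnq1ot1, with an exon of 93.1 kb, was first by level and last on this scale.

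The genes also differed in how much they varied among animals. The coefficient of variation over these 48 libraries was 18.5% for Tcf25, 21.3% for Kcnq1ot1 and 22.3% for Ankrd11, and 33.7% for Prnp, 36.8% for Map1lc3b and 43.8% for Tubb3, against a median of 39.5% over 13152 genes with a mean of at least 5 normalized CPM. Among genes within 2-fold of the gene's own level, 88.3% varied less than Tubb3, 79.4% less than Map1lc3b and 74.3% less than Prnp, and 33% varied less than Ankrd11, 20% less than Kcnq1ot1 and 14.4% less than Tcf25.

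**Figure D4:**
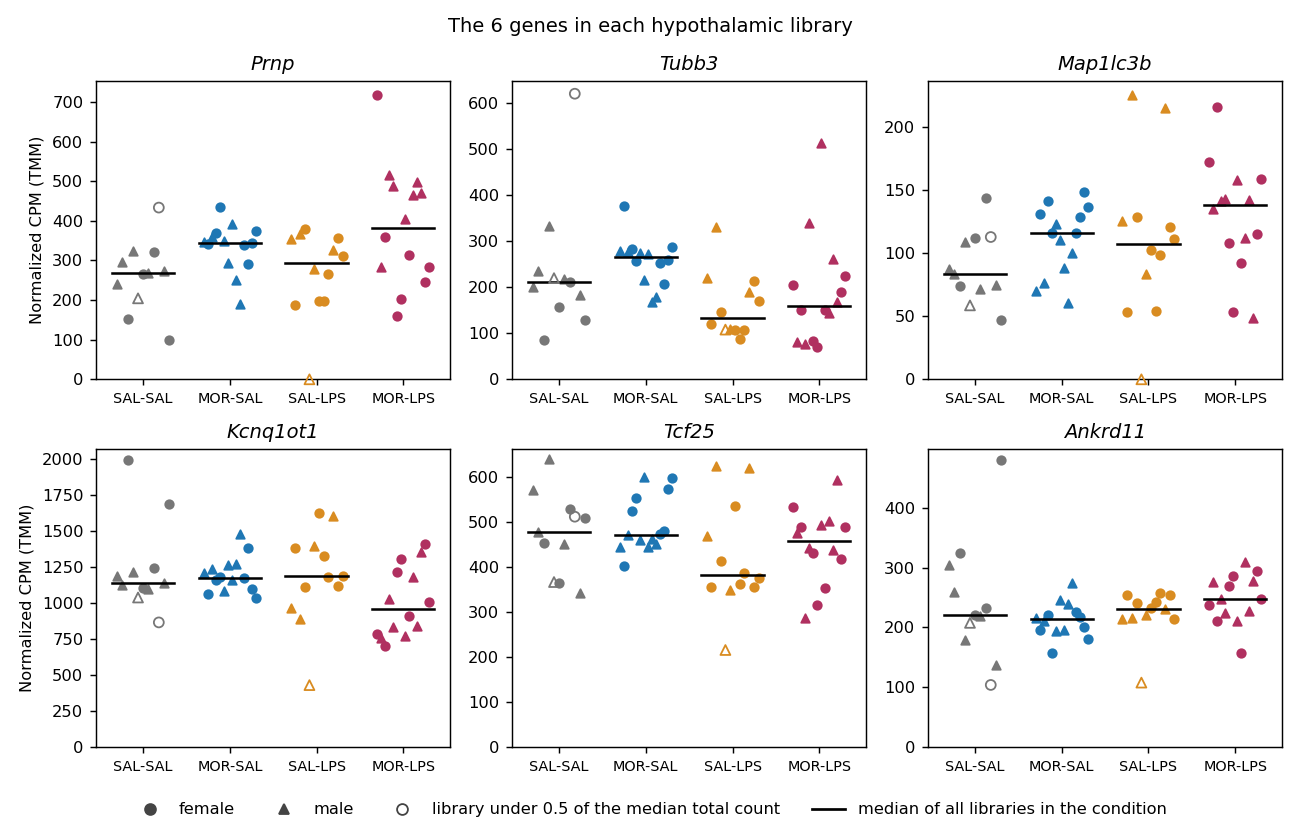
Normalized CPM of the 6 genes in each of the 51 hypothalamic libraries by condition, with females as circles, males as triangles, the 3 libraries under 0.5 of the median total count as open symbols and the median of each condition as a line. The conditions overlap for every gene. The highest Prnp value (717) is in MOR-LPS and the highest Kcnq1ot1 value (1994) in SAL-SAL.

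The tests asked whether early morphine, LPS or sex altered the 6 genes, with edgeR's quasi-likelihood test on the raw counts of the 51 libraries, sex as a term and Benjamini-Hochberg adjustment over 28859 genes. All 6 genes passed the filter of a total count above 10. At an adjusted p under 0.05 the test called 0 of 6 in MOR-SAL vs SAL-SAL, where 1.44% of all genes were called, 0 of 6 in MOR-LPS vs SAL-LPS (1.03% of all genes), 0 of 6 in SAL-LPS vs SAL-SAL (0.246%), 0 of 6 in MOR-LPS vs MOR-SAL (6.27%), 0 of 6 for the interaction, the difference between the LPS responses (3.8%), and 0 of 6 for female vs male (3.45%). At an unadjusted p under 0.05 the counts were 0, 1, 0, 1, 0 and 0 of 6 in that order, beside 4994, 4010, 4038, 5926, 4516 and 4489 of all 28859 genes, and DESeq2 also called none of the 6. A count of 0 or 1 of 6 is near these background shares. The contrasts share groups, so their values are given side by side. In these bulk libraries fewer cells of a type and less RNA per cell cannot be told apart.

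Prnp, the prion protein gene, ranged from 99.1 to 434 normalized CPM in SAL-SAL (median 269), from 189 to 434 in MOR-SAL (median 345), from 187 to 380 in SAL-LPS (median 295 with the near-empty SAL-LPS 1-4, which had 0) and from 159 to 717 in MOR-LPS (median 383). Both morphine groups had higher medians than their saline controls, with wide overlap. The fitted log2 fold change (log2FC) of MOR-SAL vs SAL-SAL was 0.37 ± 0.19 (SE, edgeR adjusted p = 0.312), with 12 of 14 MOR-SAL libraries above the SAL-SAL median. MOR-LPS vs SAL-LPS gave 0.43 ± 0.19 (95% confidence interval 0.05 to 0.81, unadjusted p = 0.0283, edgeR adjusted p = 0.27), with 9 of 14 MOR-LPS libraries above the SAL-LPS median. In limma on log2(CPM + 1) and log2(CPM + 0.1), where the 0 of SAL-LPS 1-4 enters as a value, it was 1.19 (adjusted p = 0.327) and 1.48 (adjusted p = 0.481), and edgeR without that library gave 0.35. The lowest SAL-SAL values, 99.1 and 152, belonged to the animals of label group 10, and without those libraries the log2FC of MOR-SAL vs SAL-SAL was 0.21 (adjusted p = 0.718). LPS gave 0.14 ± 0.20 in saline-exposed and 0.20 ± 0.18 in morphine-exposed mice, neither past the test. The first of these was 0.29 without the 3 shallow libraries and turned to -0.63 in limma on log2(CPM + 1), where SAL-LPS 1-4 enters at 0. The second was 0.03 in limma on log2(CPM + 1), 0.05 without label group 6, 0.07 without MOR-LPS 16-4 and at most 0.29 with any label group or library left out.

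Tubb3, the neuronal tubulin, ranged from 84.9 to 620 in SAL-SAL (median 212), from 169 to 376 in MOR-SAL (median 265), from 88.6 to 331 in SAL-LPS (median 133) and from 69.1 to 514 in MOR-LPS (median 159). Both LPS groups had lower medians than their saline-challenged counterparts, and 2 of 14 MOR-LPS libraries lay above the MOR-SAL median. The log2FC was -0.46 ± 0.22 for MOR-LPS vs MOR-SAL (SE, unadjusted p = 0.0421, edgeR adjusted p = 0.219) and -0.48 ± 0.25 for SAL-LPS vs SAL-SAL (adjusted p = 0.382). The first of these ran from -0.65 without label group 13 to -0.24 without label group 16, with a smallest adjusted p of 0.0614 without MOR-LPS 13-2, and was -0.73 in limma on log2(CPM + 1) (adjusted p = 0.179). The value of 620 came from SAL-SAL 4-3, a library of 160755 counts of which 143 were Tubb3, and without the 3 shallow libraries SAL-LPS vs SAL-SAL was -0.17 (adjusted p = 0.867). Early morphine gave 0.17 ± 0.24 without LPS and 0.20 ± 0.24 with it. The first of these was 0.47 without the shallow libraries (adjusted p = 0.276) and ran from 0.05 to 0.52 with a label group or library left out. The second ran from 0.01 to 0.35 in the same way and was 0.41 with scaling by library size.

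Map1lc3b, the LC3B gene, ranged from 47 to 144 in SAL-SAL (median 83.4), from 60.5 to 148 in MOR-SAL (median 116), from 53.3 to 225 in SAL-LPS (median 107 with SAL-LPS 1-4, which had 0) and from 48.2 to 216 in MOR-LPS (median 138). SAL-SAL had the lowest median of the 4 conditions. The log2FC was 0.32 ± 0.21 for MOR-SAL vs SAL-SAL (SE, edgeR adjusted p = 0.467) and 0.42 ± 0.22 for SAL-LPS vs SAL-SAL (adjusted p = 0.382). MOR-LPS vs SAL-LPS gave 0.12 ± 0.20 and MOR-LPS vs MOR-SAL 0.22 ± 0.19, and none of these passed the test. The value for MOR-LPS vs SAL-LPS was 0.88 and 1.17 in limma on log2(CPM + 1) and log2(CPM + 0.1) (adjusted p = 0.373 and 0.481), 0.35 with scaling by library size and 0.07 by edgeR without SAL-LPS 1-4. That for SAL-LPS vs SAL-SAL turned to -0.39 in limma on log2(CPM + 1). For MOR-LPS vs MOR-SAL it was 0.07 in limma on log2(CPM + 1) and 0.30 in DESeq2. It ran from 0.13 to 0.36 with a label group or library left out.

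Tcf25, the ribosome quality control gene, was the steadiest of the 6. It ranged from 343 to 641 in SAL-SAL (median 479), from 403 to 599 in MOR-SAL (median 472), from 348 to 624 in SAL-LPS (median 381 with SAL-LPS 1-4, which had 216 from 4 counts) and from 287 to 593 in MOR-LPS (median 458). The SAL-LPS median was the lowest, and the log2FC of SAL-LPS vs SAL-SAL was -0.13 ± 0.14 (SE, edgeR adjusted p = 0.804). Early morphine gave 0.07 ± 0.13 without LPS (95% confidence interval -0.19 to 0.33) and 0.05 ± 0.13 with it (-0.21 to 0.30). These intervals leave room for changes of up to 1.26-fold in MOR-SAL vs SAL-SAL and 1.23-fold in MOR-LPS vs SAL-LPS.

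Ankrd11, the chromatin regulator, ranged from 104 to 479 in SAL-SAL (median 221), from 158 to 274 in MOR-SAL (median 214), from 214 to 257 in SAL-LPS (median 231 with SAL-LPS 1-4, which had 108 from 2 counts) and from 157 to 310 in MOR-LPS (median 248). The medians lay close together, and the highest value, 479, was that of SAL-SAL 10-3, which also had the lowest Prnp and Map1lc3b of SAL-SAL. The log2FC was -0.20 ± 0.14 for MOR-SAL vs SAL-SAL (SE, edgeR adjusted p = 0.522) and 0.22 ± 0.13 for MOR-LPS vs MOR-SAL (adjusted p = 0.363), with 11 of 14 MOR-LPS libraries above the MOR-SAL median. Without the SAL-SAL libraries of label group 10 the first value turned to 0.03 (adjusted p = 1). The second was 0.12 in limma on log2(CPM + 1) (adjusted p = 0.728) and 0.30 in DESeq2 (adjusted p = 0.115).

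Kcnq1ot1, the imprinted antisense RNA, ranged from 867 to 1994 in SAL-SAL (median 1143), from 1035 to 1479 in MOR-SAL (median 1176), from 891 to 1626 in SAL-LPS (median 1188 with SAL-LPS 1-4, which had 431 from 8 counts) and from 705 to 1412 in MOR-LPS (median 962). MOR-LPS had the lowest median, and 4 of 14 MOR-LPS libraries lay above the SAL-LPS median and 5 of 14 above that of MOR-SAL. The log2FC was -0.24 ± 0.14 for MOR-LPS vs SAL-LPS (SE, edgeR adjusted p = 0.458) and -0.25 ± 0.13 for MOR-LPS vs MOR-SAL (adjusted p = 0.263). The latter was -0.33 in limma-voom with a correlation within label groups and without the 3 shallow libraries (adjusted p = 0.0528). In limma on log2(CPM + 1) it was -0.38 (adjusted p = 0.0763). Kcnq1ot1 was the one gene of the 6 that any alternative test called. limma-voom with a correlation within label groups gave -0.46 for MOR-LPS vs SAL-LPS (adjusted p = 0.0124) and, without the 3 shallow libraries, -0.57 (adjusted p = 0.000421), and limma-voom with no label-group correlation gave -0.45 (adjusted p = 0.0176). All 3 limma-voom fits thus called it, whereas edgeR without the shallow libraries gave -0.30 (adjusted p = 0.185) and DESeq2 -0.22 (adjusted p = 0.487). The estimated correlation within label groups was -0.049 over all libraries. The 2 highest libraries, 1994 and 1689, were again those of label group 10 in SAL-SAL. MOR-SAL vs SAL-SAL gave -0.05 ± 0.14 (adjusted p = 0.933).

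**Figure D5:**
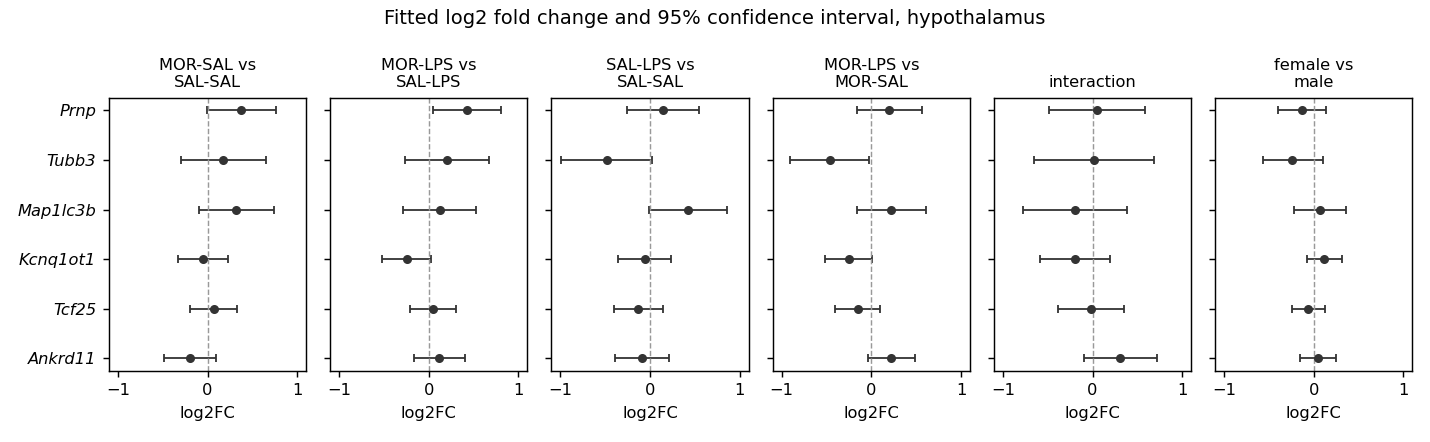
Fitted log2FC of the 6 genes in the 6 contrasts of the hypothalamic libraries, with 95% confidence intervals from edgeR's quasi-likelihood fit. The intervals of Prnp in MOR-LPS vs SAL-LPS (0.05 to 0.81) and of Tubb3 in MOR-LPS vs MOR-SAL (-0.91 to -0.02) leave out 0 before adjustment, and no adjusted p passed 0.05.

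The interaction ranged from -0.20 ± 0.29 for Map1lc3b to 0.31 ± 0.20 for Ankrd11 (SE, smallest edgeR adjusted p = 0.501), and none passed the test. The value of Kcnq1ot1, -0.19 (adjusted p = 0.758), was -0.40 in both limma-voom fits of all libraries (adjusted p = 0.218 with the label-group correlation and 0.191 without it) and -0.53 (adjusted p = 0.0575) with that correlation and without the 3 shallow libraries, and it was -0.38 without label group 10 and -0.31 without SAL-LPS 1-4. The value of Ankrd11 was 0.05 (adjusted p = 1) without the SAL-SAL libraries of label group 10 and ran from 0.06 to 0.39 with a label group or library left out. Females compared with males ranged from -0.24 ± 0.17 for Tubb3 (198 ± 115 normalized CPM in 26 females, 224 ± 95.5 in 25 males, adjusted p = 0.577) to 0.11 ± 0.10 for Kcnq1ot1 (1204 ± 277 and 1104 ± 255, adjusted p = 0.688). Without the 3 shallow libraries the sex difference of Tubb3 was -0.37 (adjusted p = 0.201). Only 1 of 17 label groups held both sexes.

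The gene families and partners of the 6 genes came from lists drawn up with earlier results of these data known. In MOR-SAL vs SAL-SAL 0 of 20 tubulins and microtubule-associated proteins were called, 14 of 20 had a log2FC above 0 and their median was 0.22, beside 0.07 over all genes. The smallest p-values in that list were those of Dcx, the doublecortin gene (log2FC 0.55 ± 0.17, edgeR adjusted p = 0.0658) and of Map1a, a neuronal microtubule-associated protein (-0.60 ± 0.20, adjusted p = 0.096). Tubb2a gave 0.62 ± 0.23 (adjusted p = 0.132) and Stmn2, encoding stathmin-2, 0.45 ± 0.17 (adjusted p = 0.147). None of 18 LC3-family and autophagy genes was called (median -0.06, 7 above 0). Gabarapl1 and Gabarapl2, LC3 relatives, gave 0.50 ± 0.19 and 0.71 ± 0.30 (adjusted p = 0.14 and 0.189). Tfeb, a transcription factor of autophagy and lysosomal genes, gave -0.97 ± 0.46 (adjusted p = 0.25), and Map1lc3a gave -0.24 ± 0.31.

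Among 8 tested prion protein relatives and partners 0 were called in MOR-SAL vs SAL-SAL (median 0.07), where Sprn, the shadow of prion protein gene, gave -0.61 ± 0.24 (adjusted p = 0.15). In the interaction 1 of the 8 was called, beside 3.8% of all genes, and it was Sprn (1.29 ± 0.34, edgeR adjusted p = 0.0196). In the Kcnq1 imprinted domain 0 of 12 tested genes were called in MOR-SAL vs SAL-SAL (median 0.08), with the smallest p for Cars, the cysteinyl-tRNA synthetase gene (0.21 ± 0.14, edgeR adjusted p = 0.497), and Kcnq1 itself gave 0.18 ± 0.42. In MOR-LPS vs MOR-SAL 1 of these 12 was called, beside 6.27% of all genes. It was Tssc4 (0.62 ± 0.20, edgeR adjusted p = 0.0463), named after its value was seen. None of 7 ribosome-associated quality control genes (median -0.14, Ltn1 -0.14 ± 0.14) and none of 12 chromatin partners of ANKRD11 (median -0.08, Ankrd12 0.07 ± 0.14) was called in MOR-SAL vs SAL-SAL. The smallest p of the quality control genes was that of Nploc4, a cofactor of the VCP segregase (-0.19 ± 0.15, edgeR adjusted p = 0.596), and of the chromatin partners that of Ncoa3, a nuclear receptor coactivator (-0.37 ± 0.15, edgeR adjusted p = 0.17). For female vs male 1 of the 18 LC3-family and autophagy genes was called, beside 3.45% of all genes. It was Atg7, required for LC3 lipidation (0.53 ± 0.14, edgeR adjusted p = 0.0252), named after its value was seen.

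Genes whose levels followed each member were ranked by Spearman's rho over the 48 deep libraries among 13152 genes, as a description. These libraries differed in depth and in the marker sums given below. The part of such differences, or of any batch, in the correlations was not tested. Tubb3 was most like other tubulins: Tubb5 (rho 0.92), Tubb4b (0.86) and Tuba1a (0.85). Prnp was most like Arl6ip1 (0.83), Gpm6a (0.82), which encodes a neuronal membrane glycoprotein, and Prdx2 (0.82), a peroxiredoxin. Map1lc3b was most like Wbp2 (0.78), Aldoa (0.74) and Ckb (0.73), the last pair being the enzymes aldolase A and brain creatine kinase. For Tcf25 the genes most like it included Eef2 (0.75), the translation elongation factor, and Clip3 (0.70). Kcnq1ot1 was most like the predicted genes Gm15414 (0.84), Gm37814 (0.80) and Gm38085 (0.78), and Ankrd11 like RP23-120C8.3 (0.72), RP23-276C23.2 (0.69) and Ankhd1 (0.69).

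Between the 6 genes rho ran from -0.61 for Map1lc3b with Kcnq1ot1 to 0.57 for Prnp with Map1lc3b. Prnp, Tubb3 and Map1lc3b were positively related to each other (0.39 to 0.57) and negatively to both Kcnq1ot1 (-0.61 to -0.39) and Ankrd11 (-0.59 to -0.28), while Kcnq1ot1 and Ankrd11 were positively related (0.42). Tcf25 had a rho of 0.40 with Tubb3, 0.34 with Map1lc3b and 0.23 with Prnp, and of 0.02 with Kcnq1ot1 and -0.05 with Ankrd11. The signs among the other five genes were the same in deviations from the condition and sex means, where Prnp with Kcnq1ot1 was -0.53 and Kcnq1ot1 with Ankrd11 was 0.61.

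Markers of other cells varied among the hypothalamic libraries. The 9 neuronal markers, all present, summed to between 1875 and 3704 normalized CPM over the 48 deep libraries, and the 12 hypothalamic markers to between 0.679 and 570 (median 96.2), with Avp and Oxt at 0 in 24 and 26 of 51 libraries. The 8 thalamic markers reached 5844 in SAL-SAL against at most 1396 in MOR-SAL, 912 in SAL-LPS and 856 in MOR-LPS. The 8 oligodendrocyte markers ran from 93.8 to 6921 in SAL-SAL, from 73.4 to 645 in MOR-SAL, from 158 to 2490 in SAL-LPS and from 225 to 6232 in MOR-LPS. The 8 astrocyte markers had medians of 659 in MOR-LPS, 257 in SAL-SAL, 256 in SAL-LPS and 132 in MOR-SAL. In MOR-LPS vs MOR-SAL, where 6.27% of all genes were called, 5 of 8 oligodendrocyte, 6 of 8 astrocyte, 4 of 6 cortical, 3 of 8 microglial and 1 of 7 endothelial markers were called higher. In females compared with males, where 3.45% were called, 7 of 8 oligodendrocyte, 4 of 8 astrocyte and 3 of 8 microglial markers were higher. In MOR-SAL vs SAL-SAL, where 1.44% were called, 4 of 8 thalamic, 2 of 7 choroid plexus, 1 of 8 oligodendrocyte and 1 of 8 astrocyte markers were called lower. In SAL-LPS vs SAL-SAL, where 0.246% were called, 3 of 8 thalamic markers and 1 of 7 choroid plexus markers were lower, and in MOR-LPS vs SAL-LPS, where 1.03% were called, 1 of 8 astrocyte markers was higher. Ttr, a choroid plexus marker, gave -6.02 ± 0.96 in MOR-SAL vs SAL-SAL and -5.88 ± 1.07 in SAL-LPS vs SAL-SAL (edgeR adjusted p = 0.000241 and 0.00906). In the interaction, where 3.8% were called, 5 of 8 oligodendrocyte, 3 of 8 astrocyte, 3 of 8 thalamic, 1 of 8 microglial and 1 of 7 choroid plexus markers were called higher and 1 of 12 hypothalamic markers lower. The part of these cells in the values of the 6 genes was not tested.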

How the data were processed

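RNA of sorted NeuN+ nuclei was sequenced from 4 brain regions. Per the labels and the study's methods, the authors trimmed reads with Trim Galore 0.6.7, aligned them to mm10 with STAR 2.7.10a and obtained raw counts per gene from STAR with GENCODE vM25. HTSeq 0.12.4 and DESeq2 1.40.2 are also named in the submitters' processing notes, and the strand setting is not given in the sources used here. The deposited CPM tables, also made by the authors, equal CPM computed from the deposited counts without 37 mitochondrial genes.

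The 6 genes and all lists were chosen with earlier results of these data known. Named genes were the 6 genes, genes overlapping them, the 3 genes most like each (1 of them is not reported here), markers, and from each list 1 to 4 with the smallest p in MOR-SAL vs SAL-SAL and the nearest tested relative; others are named as chosen after their values were seen. Gene bodies came from GENCODE M21 (41955 of 46403 symbols matched) and starts from RefSeq GRCm38.p6.

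Hypothalamic counts were fitted with edgeR 4.0.16 (R 4.3.3, quasi-likelihood, TMM, condition and sex, total count above 10) with Benjamini-Hochberg adjustment. Each library is 1 animal, so p-values measure spread between animals and not between litters, which the labels do not give. Intervals cover counting error only where counts are given. DESeq2 1.42.0 and limma 3.58.1 served as alternatives. On simulated counts for MOR-SAL vs SAL-SAL (27781 genes), edgeR recovered 52% of 100 genes changed by 1 on the log2 scale and 96% of 100 changed by 2, with 58 false calls. The other fits made fewer false calls on these counts. DESeq2 recovered 56% and 96% with 13 false calls, and limma-voom 53% and 94% with 5. For limma on log2(CPM + 1) the values were 28% and 92% with 2.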

Additional observations from a re-analysis of the deposited data

How the results depend on the processing

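No member was called by edgeR's quasi-likelihood test, DESeq2 or limma on CPM under any setting, or with any label group or library left out, whereas all 3 limma-voom fits called 1 member, Kcnq1ot1, in MOR-LPS vs SAL-LPS (-0.46 with the label-group correlation, adjusted p = 0.0124; -0.57 with the label-group correlation and no shallow libraries; -0.45 with no label-group correlation), and the cause was not tested. The settings with limma-voom and no shallow libraries, with no label-group correlation, without SAL-LPS 1-4, without libraries whose Y-linked genes went against the label and without the SAL-SAL libraries of label group 10, and the nesting shares by listed hosts, by unshared exons and by RefSeq, were chosen after seeing the data. Of 576 log2FC values of the 6 genes under these alternatives 56 had the opposite sign, as did 56 of 2448 with a label group or library left out. Deviations of libraries of the same label group had a mean correlation of -0.029 (54 pairs) and those of different label groups -0.008 (1074 pairs). Over all genes, libraries of a label group were thus no more alike on average. Such a mean cannot tell whether single genes shift together within a label group. With label group as a replicate block, no member was called in either LPS response or the interaction. The share of nested genes at 0 in the other regions (95.1%) was 87.0% with at least 0.9 of the body inside, 96.6% with protein-coding hosts, 97.3% with listed hosts, 96.9% with no exonic base shared and 81.2% with RefSeq bodies, and 25% of the genes whose exons lie wholly inside another gene's exons (4 genes).

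For MOR-SAL vs SAL-SAL, where edgeR called 416 genes, the count was 186 with filterByExpr, 916 with no sex term, 25 with limma-voom with the label-group correlation, 85 with limma-voom with the label-group correlation and no shallow libraries, 7 with limma-voom with no label-group correlation, 87 with limma on log2(CPM + 1), 79 with limma on log2(CPM + 0.1), 188 with no libraries with Y-linked genes against the label and 175 with no SAL-SAL libraries of label group 10, and from 85 to 774 with a label group or library left out. For MOR-LPS vs SAL-LPS, where edgeR called 298 genes, the count was 50 with DESeq2, 6 with filterByExpr, 66 with edgeR without the shallow libraries, 740 with no sex term, 2 with only the groups compared, 156 with limma-voom with no label-group correlation, 2 with limma on log2(CPM + 1), 2 with limma on log2(CPM + 0.1), 158 with no SAL-LPS 1-4 and 2 with no libraries with Y-linked genes against the label, and from 0 to 329 with a label group or library left out. For SAL-LPS vs SAL-SAL, where edgeR called 71 genes, the count was 118 with DESeq2, 111 with DESeq2 size factors in edgeR, 120 with scaling by library size, 19 with filterByExpr, 109 with edgeR without the shallow libraries, 16 with no sex term, 13 with only the groups compared, 0 with limma-voom with the label-group correlation, 107 with limma-voom with the label-group correlation and no shallow libraries, 17 with limma-voom with no label-group correlation, 10 with label group as a replicate block, 0 with limma on log2(CPM + 1), 0 with limma on log2(CPM + 0.1), 17 with no SAL-LPS 1-4 and 1 with no SAL-SAL libraries of label group 10, and from 0 to 211 with a label group or library left out. For MOR-LPS vs MOR-SAL, where edgeR called 1809 genes, the count was 689 with filterByExpr, 2867 with no sex term, 533 with limma-voom with the label-group correlation, 996 with limma-voom with the label-group correlation and no shallow libraries, 630 with limma-voom with no label-group correlation, 322 with label group as a replicate block, 311 with limma on log2(CPM + 1) and 162 with limma on log2(CPM + 0.1), and from 809 to 2015 with a label group or library left out. For the interaction, where edgeR called 1098 genes, the count was 345 with DESeq2, 132 with filterByExpr, 37 with limma-voom with the label-group correlation, 258 with limma-voom with the label-group correlation and no shallow libraries, 58 with limma-voom with no label-group correlation, 37 with label group as a replicate block, 2 with limma on log2(CPM + 1) and 2 with limma on log2(CPM + 0.1), and from 669 to 1258 with a label group or library left out. For female vs male, where edgeR called 995 genes, the count was 476 with DESeq2, 207 with filterByExpr, 298 with limma-voom with the label-group correlation, 188 with limma-voom with no label-group correlation, 50 with limma on log2(CPM + 1) and 46 with limma on log2(CPM + 0.1), and from 512 to 1101 with a label group or library left out. Where SAL-LPS vs SAL-SAL gave 0 genes, 2503 genes had an unadjusted p under 0.05 by limma-voom with the label-group correlation, 2575 by limma on log2(CPM + 1) and 2237 by limma on log2(CPM + 0.1). By edgeR 3533 had one in MOR-LPS vs SAL-LPS without label group 14, and 3728 in SAL-LPS vs SAL-SAL without label group 3, where 0 were called.

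Kcnq1ot1 in MOR-SAL vs SAL-SAL (-0.05) was 0.08 with scaling by library size and 0.09 with limma on log2(CPM + 1), limma on log2(CPM + 0.1) and no SAL-SAL libraries of label group 10 and ran from -0.11 to 0.13 with a label group or library left out. Tcf25 in MOR-SAL vs SAL-SAL (0.07) ran from -0.01 to 0.16 with a label group or library left out. Ankrd11 in MOR-SAL vs SAL-SAL (-0.20) was 0.02 with limma on log2(CPM + 1) and limma on log2(CPM + 0.1) and 0.03 with no SAL-SAL libraries of label group 10 and ran from -0.29 to 0.07 with a label group or library left out. Map1lc3b in MOR-LPS vs SAL-LPS (0.12) was -0.06 with limma-voom with the label-group correlation and no shallow libraries and ran from -0.10 to 0.29 with a label group or library left out. Tcf25 in MOR-LPS vs SAL-LPS (0.05) was -0.02 with limma-voom with the label-group correlation and no SAL-LPS 1-4, -0.08 with limma-voom with the label-group correlation and no shallow libraries and -0.03 with limma-voom with no label-group correlation and ran from -0.06 to 0.11 with a label group or library left out. Prnp in SAL-LPS vs SAL-SAL (0.14) was -0.05 with scaling by library size, -0.63 with limma on log2(CPM + 1), -0.92 with limma on log2(CPM + 0.1) and -0.00 with no SAL-SAL libraries of label group 10. Map1lc3b in SAL-LPS vs SAL-SAL (0.42) was -0.39 with limma on log2(CPM + 1) and -0.68 with limma on log2(CPM + 0.1). Kcnq1ot1 in SAL-LPS vs SAL-SAL (-0.06) was 0.08 with limma-voom with the label-group correlation and limma-voom with no label-group correlation, 0.19 with limma-voom with the label-group correlation and no shallow libraries, 0.02 with no SAL-LPS 1-4 and 0.11 with no SAL-SAL libraries of label group 10 and ran from -0.14 to 0.10 with a label group or library left out. Tcf25 in SAL-LPS vs SAL-SAL (-0.13) was 0.00 with limma-voom with the label-group correlation, 0.09 with limma-voom with the label-group correlation and no shallow libraries and 0.02 with limma-voom with no label-group correlation. Ankrd11 in SAL-LPS vs SAL-SAL (-0.09) was 0.18 with no SAL-SAL libraries of label group 10 and ran from -0.16 to 0.14 with a label group or library left out. Prnp in the interaction (0.05) was -0.09 with edgeR without the shallow libraries, -0.11 with limma-voom with the label-group correlation, -0.08 with limma-voom with the label-group correlation and no shallow libraries, -0.12 with limma-voom with no label-group correlation, -0.04 with label group as a replicate block and -0.06 with no SAL-LPS 1-4 and ran from -0.19 to 0.15 with a label group or library left out. Tubb3 in the interaction (0.02) was -0.30 with edgeR without the shallow libraries, -0.26 with limma-voom with the label-group correlation and limma-voom with the label-group correlation and no shallow libraries, -0.27 with limma-voom with no label-group correlation, -0.24 with label group as a replicate block, limma on log2(CPM + 1) and limma on log2(CPM + 0.1), -0.06 with no SAL-LPS 1-4 and -0.00 with no libraries with Y-linked genes against the label and ran from -0.39 to 0.24 with a label group or library left out. Map1lc3b in the interaction (-0.20) was 0.45 with limma on log2(CPM + 1) and 0.75 with limma on log2(CPM + 0.1). Tcf25 in the interaction (-0.02) was 0.07 with DESeq2, 0.08 with DESeq2 size factors in edgeR, 0.03 with scaling by library size and 0.01 with filterByExpr and ran from -0.17 to 0.04 with a label group or library left out. Prnp in female vs male (-0.13) was 0.20 with limma on log2(CPM + 1) and 0.35 with limma on log2(CPM + 0.1). Map1lc3b in female vs male (0.07) was -0.01 with limma-voom with the label-group correlation and no shallow libraries. Kcnq1ot1 in female vs male (0.11) was -0.05 with limma-voom with the label-group correlation and no shallow libraries. Tcf25 in female vs male (-0.06) was 0.02 with DESeq2, 0.03 with DESeq2 size factors in edgeR and 0.00 with scaling by library size. Ankrd11 in female vs male (0.05) was -0.07 with no SAL-SAL libraries of label group 10 and ran from -0.09 to 0.11 with a label group or library left out.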

Other observations

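Other genes counted in the hypothalamus alone, chosen after their values were seen, reached levels like those of the 6 genes. Tmem181b-ps had a mean of 595 CPM, Zcchc18 589, Nap1l5, an imprinted gene, 375, Cpne7, a copine gene inside Gm20388, 325, Per3, a gene of the circadian clock, 271.0 and Itsn1, an endocytic scaffold gene, 224. Each had 0 counts in hippocampus, PFC and striatum.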
